A study of Mus musculus with 8 samples.

Results

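The genes described here encode proteins that splice pre-mRNA or package and process RNA. They were chosen by symbol, as every gene whose name starts with Srsf, Hnrnp, Snrp, Sf3a, Sf3b, or Lsm, with Snrpn left out. This rule found 65 of the 24354 gene symbols with an FPKM value (fragments per kilobase of transcript per 1000000 fragments): 11 Srsf genes, 20 Hnrnp genes, 11 Snrp genes, 9 Sf3a or Sf3b genes, and 14 Lsm genes. The rule used names alone and no measured value. It also caught Lsmem1, which encodes a membrane protein and no Lsm protein, and it did not catch splicing proteins with other names such as Snrnp70. Of the 65, 64 had a mean of at least 1 FPKM in at least 1 group and were tested among 13239 such genes. The exception was Lsmem1, which lay between 0 and 0.179 FPKM in the 8 libraries.

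RNA sequencing of mouse cells asked how far hybrid cells made by fusing extended pluripotent stem cells with neural stem cells take on the transcriptome of the pluripotent partner. There were 4 groups of 2 libraries. The ESCs were wild-type E14 embryonic stem cells, grown with serum and leukemia inhibitory factor on inactivated C3H mouse embryonic fibroblasts. The NSCs were OG2+/-/ROSA26+/- neural stem cells, which carry an Oct4-GFP transgene driven by the distal enhancer of Oct4 and a ubiquitous lacZ, grown on gelatin with EGF and FGF2. The EPSCs were wild-type extended pluripotent stem cells from C57BL/6 8-cell embryos (line 1, passage 15), grown on the same kind of fibroblasts in LCDM medium, which contains leukemia inhibitory factor, CHIR99021, dimethindene maleate, and minocycline. The hybrid cells were EPSC-NSC fusion cells made with polyethylene glycol (line 2-2, passage 10), selected as Oct4-GFP+ colonies, near-tetraploid, and grown like the EPSCs. Each group was a single line, so line and strain cannot be told apart from cell type. The same holds for medium, except between EPSCs and hybrid cells, which shared it, and for the feeder layer in comparisons with NSCs. The p-values measure only the spread between repeated libraries of a line.

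Splicing removes introns in the spliceosome, which is built from small nuclear ribonucleoproteins (snRNPs). Each snRNP of the U1, U2, U4, and U5 kind carries a ring of Sm proteins, encoded by most of the Snrp genes, whereas U6 snRNA and the 3′ ends of mRNAs in decay bodies carry related rings of Lsm proteins. SF3A and SF3B are the U2 snRNP subcomplexes that hold the branch point. SR proteins (Srsf) bind exons and mostly promote their inclusion, and hnRNP proteins coat pre-mRNA and often oppose them. Pluripotent cells and neural cells are known to use different splicing programs.

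The promoters of 6 members are shown. Lsm3, Snrpb2, and Sf3a3 were among the members that most exceeded the NSC level in the hybrid cells, and Srsf6, Lsm14b, and Hnrnph3 were among those that differed most between EPSCs and ESCs. Each sequence is the RefSeq window of GRCm38.p6 from 150 bases before to 30 bases after an annotated start, 5′ to 3′ on the strand of the gene. For Lsm14b and Hnrnph3 the annotated gene reaches further 5′, to chr2:180024900 and chr10:63023980, so these windows surround inner starts. Capitals mark matches on either strand to the GC box GGGCGG, the CCAAT box CCAAT, the ETS site CCGGAAGT, the YY1 site ATGGCGG, the TATA box TATAAA, the E-box CACGTG, or the cAMP response element TGACGTCA. None of the marked matches overlap.
Lsm3: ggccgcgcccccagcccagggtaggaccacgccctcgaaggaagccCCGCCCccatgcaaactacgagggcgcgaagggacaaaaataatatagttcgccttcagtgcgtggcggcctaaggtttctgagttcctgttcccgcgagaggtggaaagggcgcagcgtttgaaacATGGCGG
Snrpb2: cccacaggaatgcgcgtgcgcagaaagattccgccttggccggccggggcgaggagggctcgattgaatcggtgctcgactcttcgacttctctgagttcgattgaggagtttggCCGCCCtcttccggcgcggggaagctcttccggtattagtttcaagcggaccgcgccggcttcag
Sf3a3: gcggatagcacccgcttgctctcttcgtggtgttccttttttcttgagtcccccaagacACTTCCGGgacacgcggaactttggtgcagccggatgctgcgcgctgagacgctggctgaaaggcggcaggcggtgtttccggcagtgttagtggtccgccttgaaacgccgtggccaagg
Srsf6: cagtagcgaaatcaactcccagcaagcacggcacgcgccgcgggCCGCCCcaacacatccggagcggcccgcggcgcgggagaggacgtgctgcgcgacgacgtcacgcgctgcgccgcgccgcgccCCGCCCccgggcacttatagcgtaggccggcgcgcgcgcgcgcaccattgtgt
Lsm14b: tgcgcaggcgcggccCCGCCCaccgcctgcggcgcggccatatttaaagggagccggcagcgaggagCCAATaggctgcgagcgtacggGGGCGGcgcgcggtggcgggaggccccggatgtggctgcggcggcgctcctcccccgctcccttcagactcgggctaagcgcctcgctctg
Hnrnph3: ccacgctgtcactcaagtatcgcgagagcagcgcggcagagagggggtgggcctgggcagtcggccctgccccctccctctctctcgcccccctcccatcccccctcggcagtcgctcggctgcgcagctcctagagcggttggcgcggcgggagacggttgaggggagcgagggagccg
The Lsm3 window (chr6:91515885-91516064, plus strand) held a GC box and, 24 bases into the transcript, a YY1 match. Snrpb2 (chr2:143062919-143063098, plus strand) had a single GC box, and Sf3a3 (chr4:124714711-124714890, plus strand) an ETS match. In Srsf6 (chr2:162931358-162931537, plus strand) 2 GC boxes were found, and Lsm14b (chr2:180024837-180025016, plus strand) had 2 GC boxes and a CCAAT box. The Hnrnph3 window (chr10:63023820-63023999, minus strand) held none of these letters. A GC box was thus in Lsm3 and Snrpb2 but not in the Sf3a3 window.

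Windows of 300 bases, from 250 before to 50 after the start, were found for 56 of the members, 72 windows in all. Here 10 letter strings were searched. ATGGCGG occurred in 23.6% of the members' windows, in 7.68% of the 12792 windows of tested genes, and in 4.05% of all 32851 windows. CCGGAAGT occurred in 16.7%, 7.58%, and 3.89%, and the shorter ETS core CTTCCG, which lies within CCGGAAGT read on the other strand, in 50%, 29.7%, and 16.9%. GGGCGG occurred in 75%, 62.5%, and 35.7%. The shares for CCAAT were 45.8%, 38%, and 37.4%, for TATAAA 8.33%, 6.97%, and 13.6%, for CACGTG 9.72%, 9.96%, and 7.15%, and for TGACGTCA 4.17%, 3.03%, and 1.79%. The palindromes known from ZBTB33 (2.78%, 0.962%, and 0.466%) and NRF1 (1.39%, 1.97%, and 0.971%) were rare. These shares describe letters, and windows of alternative starts of a gene overlap.

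The labels were first checked against markers. The summed level of 10 pluripotency genes was 4909 to 5776 FPKM in the ESC, EPSC, and hybrid libraries and 2.40 and 2.99 FPKM in the NSC libraries, where 6 of the 10 were listed at 0, Pou5f1 among them. The sum of 11 neural stem cell genes was 4839 and 4722 FPKM in NSCs and 220 to 668 FPKM elsewhere, where Vim made up most of it. Fibroblast genes (14, including collagens) summed to 24.8 and 27.1 FPKM in ESCs, 61.5 and 58.4 in NSCs, 124 in both EPSC libraries, and 449 and 331 in the hybrid cells. In NSCs, Fbln2 (32.9 and 31.6 FPKM) and Col6a1 (17.4 and 15.5 FPKM) made up most of it, and Col1a2 was at 0 in both libraries. Postn, also among these genes, was listed by the authors as specific to EPSCs. The sum is thus not a measure of fibroblasts alone. The depth, derived from the steps between FPKM values with an assumed fragment length of 200 bases, was 22.0 to 32.5 in units of 1000000 fragments, and 3 fragments on a transcript of 1 kilobase correspond to 0.0922 to 0.136 FPKM. Summed over all genes, FPKM came to 415240 and 415412 in the NSC libraries and to 600674 to 653796 in the others. Genes of ribosomal proteins (85) took 13.3% and 12.9% of this sum in NSCs and 24.7% to 28.4% elsewhere.

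The splicing factors were among the most abundant mRNAs of every cell type. The median tested member stood at percentile 93.1 to 95.2 of the tested genes in the 8 libraries. Its level was 124 and 127 FPKM in ESCs, 80.3 and 83.8 in NSCs, 156 and 144 in EPSCs, and 147 and 132.5 in the hybrid cells, against 8.89 to 10.8 FPKM for the median of all tested genes. As a share of all FPKM, which does not depend on how libraries are scaled to each other, the members took 1.74% and 1.79% in ESCs, 1.67% and 1.71% in NSCs, 1.99% and 1.94% in EPSCs, and 1.89% and 1.79% in hybrid cells. NSCs thus gave the lowest share and EPSCs the highest, and 1 hybrid library and 1 ESC library were both at 1.79%.

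The mix of families differed more than the total. Genes for hnRNP proteins made up 45.2% and 46.0% of the members' summed FPKM in NSCs, 34.2% and 34.8% in ESCs, 37.7% in both EPSC libraries, and 38.7% and 37.8% in hybrid cells. SR protein genes made up 20.9% and 21.6% in ESCs, 15.0% and 15.4% in NSCs, 16.9% and 16.1% in EPSCs, and 15.6% and 15.4% in hybrid cells. The Snrp genes made up 22.5% and 21.3% in NSCs and 25.7% to 28.6% elsewhere. So the NSC libraries held the largest share of hnRNP mRNA, the ESC libraries the largest share of SR mRNA, and the EPSC and hybrid libraries the largest shares of Snrp mRNA. These shares were not tested.

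**Figure D1:**
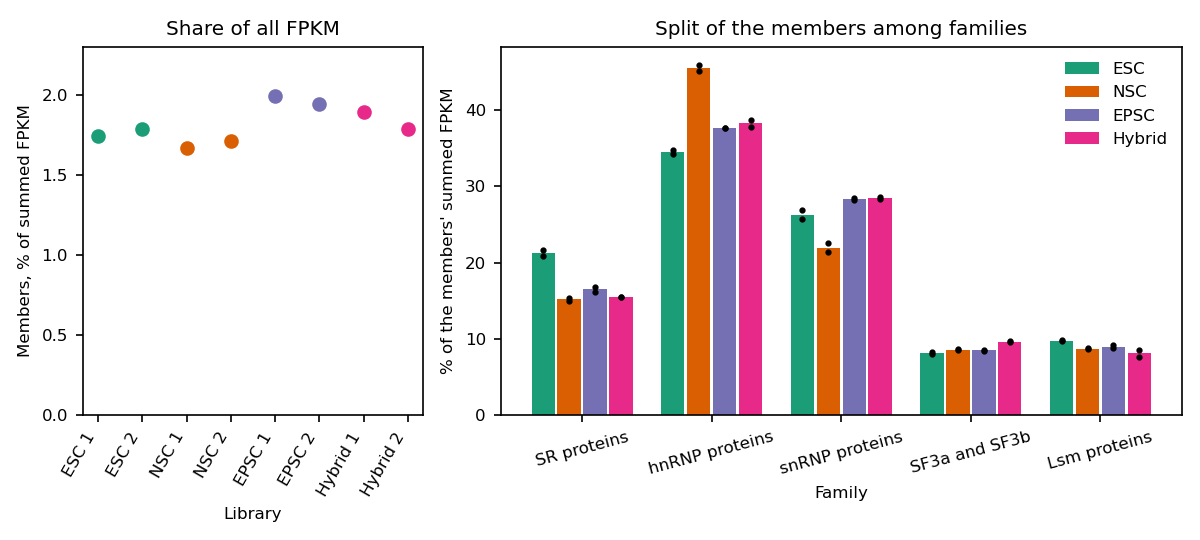
Left, share of the summed FPKM of all genes taken by the 65 members, in percent, with 1 point per library. Right, split of the members' summed FPKM among the 5 families, in percent, with bars for the mean of 2 libraries and points for the libraries: hnRNP genes reach 45.2% and 46.0% in NSCs, and SR genes 20.9% and 21.6% in ESCs.

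Across groups, NSCs had the lowest mean for 48 of the 64 tested members, beside 42.9% of all tested genes, and EPSCs the highest for 28 (19.0%), hybrid cells for 17 (20.8%), ESCs for 13 (20.5%), and NSCs for 6 (39.7%). These counts rest on FPKM as deposited. With each library scaled to the same sum, a setting added after the data were seen, NSCs were lowest for 20 (28.6% of all tested genes) and ESCs for 27 (27.6%), and EPSCs and NSCs were highest for 21 each (12.9% and 55.2%). As deposited, the order EPSC, hybrid, ESC, NSC, from high to low, was the most frequent, with 16 members. The heat map of all members by role shows the NSC columns low in the Sm ring, the U1 and U2 proteins, SF3A, and most SR proteins, with exceptions such as Hnrnpll, Hnrnpul1, Srsf9, and Lsm11. Repeated libraries were close, with a median absolute difference between the 2 libraries of 0.05 (log2) over the members for ESCs and for NSCs, 0.12 for EPSCs, and 0.11 for hybrid cells. Library 1 exceeded library 2 for 50 of the 64 members in EPSCs and for 50 in hybrid cells, against 6972 and 6987 of all 13239 tested genes.

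**Figure D2:**
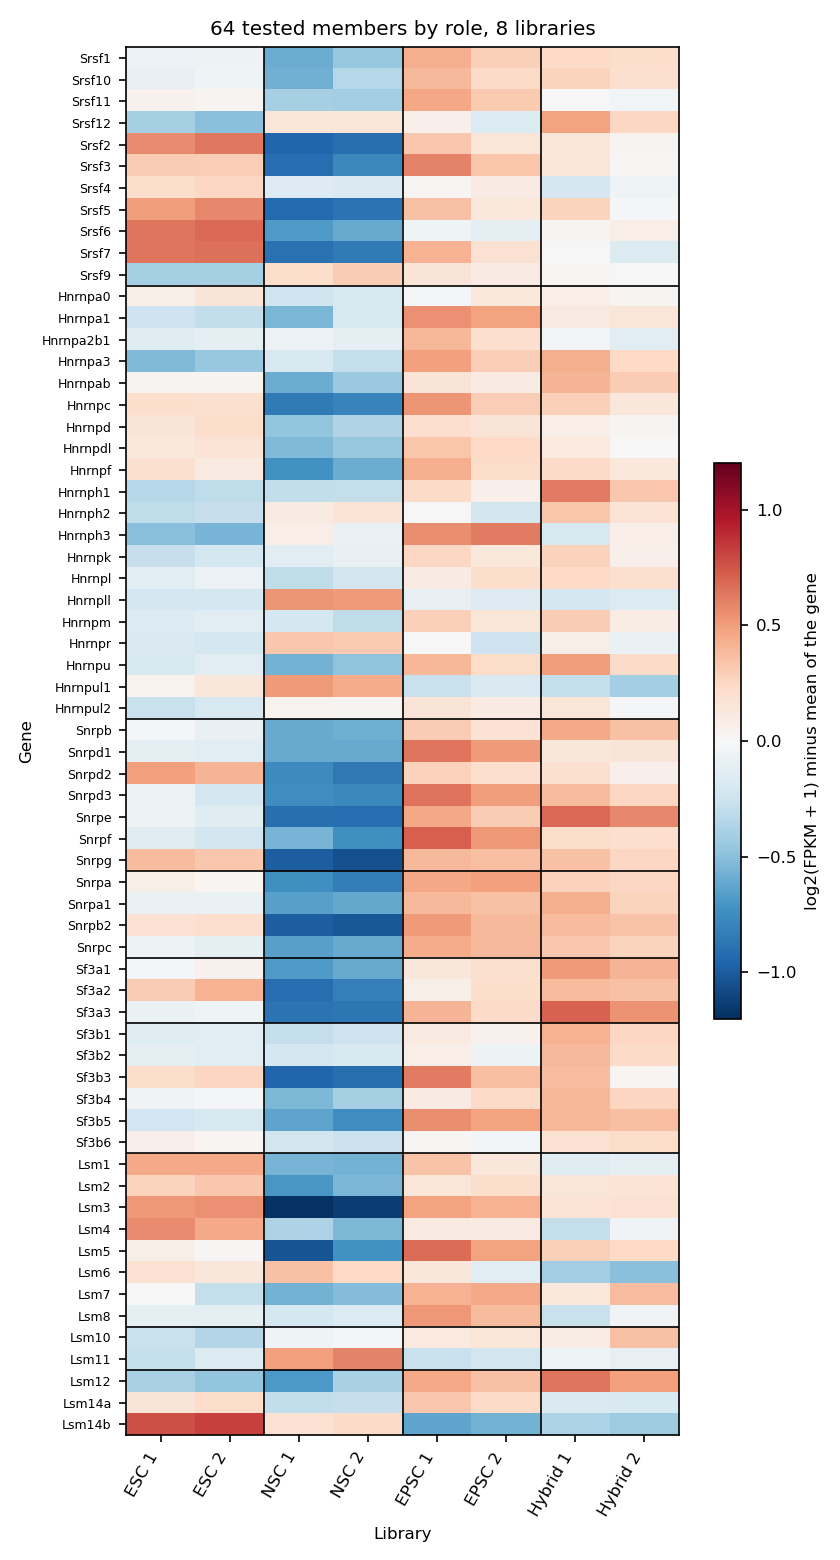
Heat map of log2(FPKM + 1) minus the mean of the gene over the 8 libraries, for the 64 tested members (rows, grouped by role) and the 8 libraries (columns). NSCs have the lowest mean of the 4 groups for 48 members in FPKM as deposited, and for 20 with equal sums.

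Differences were tested with limma on log2(FPKM + 1), and a gene was called higher or lower where the Benjamini-Hochberg adjusted p over all tested genes was under 0.05 and the difference at least 1.5-fold on that scale. Between EPSCs and NSCs, 40 members were higher in EPSCs and 4 lower, where 34.2% of all tested genes were higher and 32.5% lower. In hybrid cells against NSCs, 35 members were higher and 5 lower (all tested genes: 34.0% and 32.5%), and in ESCs against NSCs 25 were higher and 4 lower (31.7% and 32.6%). These 3 comparisons share the NSC libraries. Among the pluripotent cells, 8 members (12.5%) were higher in EPSCs than in ESCs, near the 14.2% of all tested genes, and 2 were lower (13.1%). In hybrid cells against EPSCs, 0 were higher and 2 lower (7.39% and 5.62%). At an unadjusted limma p under 0.05, 14 members were higher and 23 lower in hybrid cells than in EPSCs, none of the 14 by 1.5-fold, beside 3517 and 3444 of the 13239 tested genes. The median member differed by 0.79 (log2) in EPSCs against NSCs, 0.72 in hybrid cells against NSCs, 0.47 in ESCs against NSCs, 0.24 in EPSCs against ESCs, and -0.10 in hybrid cells against EPSCs, beside medians of 0.08, 0.06, 0.03, 0.04, and 0.00 for all tested genes.

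The plot of differences by family shows how the families were ordered.

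**Figure D3:**
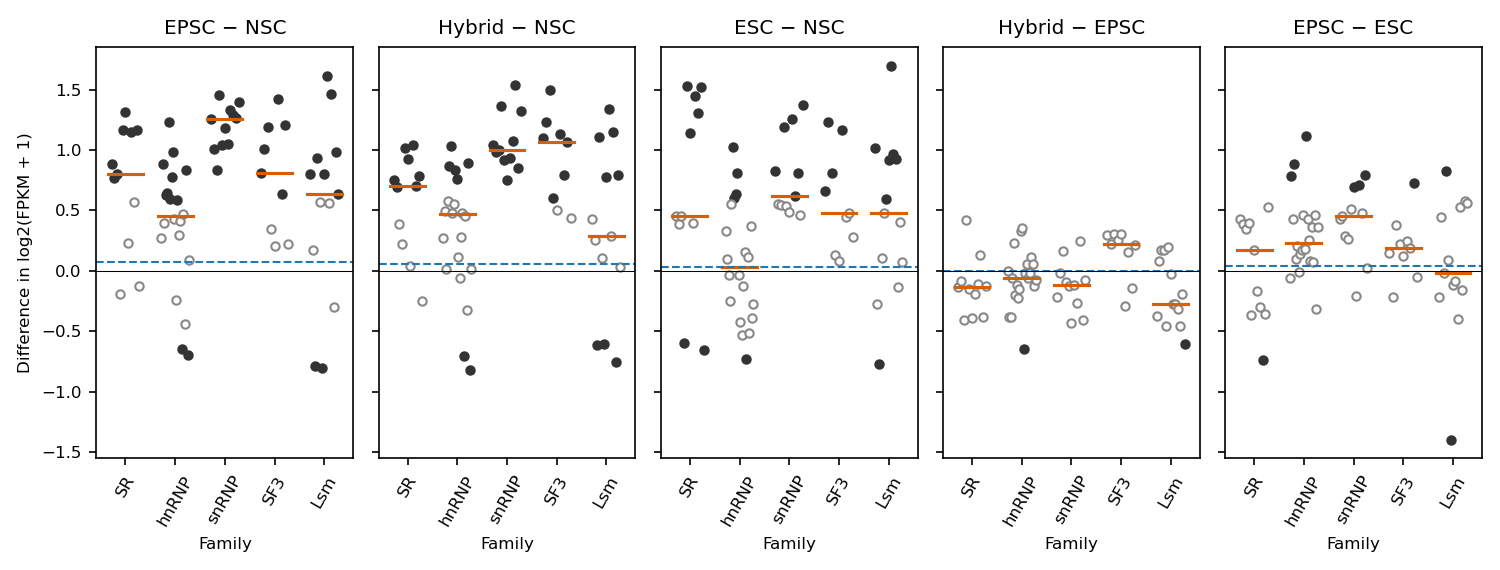
Difference in log2(FPKM + 1) of each tested member (points, spread within each family in alphabetical order) in the 5 comparisons. Filled points were called, open points were not, orange bars are family medians, and the dashed line is the median of all tested genes. The family median of the Snrp genes is 1.26 in EPSCs against NSCs and -0.12 in hybrid cells against EPSCs.

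Every comparison with NSCs rests on how the libraries are scaled. With each library scaled to the same sum, the median of all tested genes against NSCs moved to -0.48 (log2) for EPSCs, -0.51 for hybrid cells, and -0.47 for ESCs. This scaling moved the members along with all genes. The median member was at 0.18, 0.11, and -0.08, still above the median of all tested genes. The members called higher and lower then numbered 13 and 9, 6 and 10, and 11 and 14 of 64, where 22.9% and 46.8%, 22.4% and 47.7%, and 21.9% and 46.8% of all tested genes were higher and lower. The members called higher were thus near or below the share of all genes, and those called lower were below it. After quantile normalization they numbered 20 and 3, 13 and 6, and 17 and 6, beside 33.1% and 31.0%, 33.0% and 31.7%, and 32.5% and 30.6% of all tested genes. The median difference also rose with the level of the genes. Over all tested genes with a mean of 100 to 300 FPKM the median difference from NSCs was 0.89 for EPSCs, 0.89 for hybrid cells, and 0.62 for ESCs, and over the members in that range it was 0.99, 0.79, and 0.54. Over 300 FPKM the medians were 1.30, 1.25, and 1.09 for all genes and 1.05, 0.93, and 0.62 for the members. The level here is the mean over the 4 groups, 3 of which are not NSCs, so a gene that is higher outside NSCs is also placed in a higher range, and these medians are a description that is not independent of the difference itself. The members with a call in each scaling (as deposited, equal sums, quantile normalization, and median ratios) were 13 higher and 3 lower in EPSCs against NSCs, 6 and 4 in hybrid cells against NSCs, 11 and 3 in ESCs against NSCs, 5 and 2 in EPSCs against ESCs, and 0 and 0 in hybrid cells against EPSCs. The share of all tested genes called in each scaling is not given, so such counts, here and by family below, cannot be read as many or few.

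**Figure D4:**
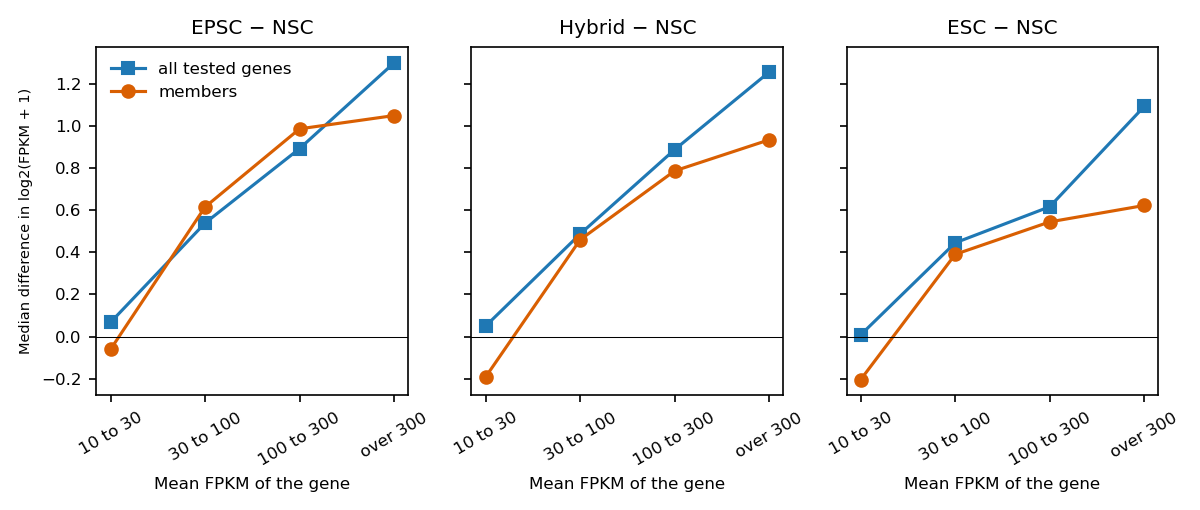
Median difference in log2(FPKM + 1) from NSCs for all tested genes (squares) and for the members (circles), by the mean FPKM of the gene over the 4 groups (which includes the groups compared), without the range under 10 FPKM, which holds 1 member. Between 100 and 300 FPKM the medians are 0.89 and 0.99 in EPSCs, and over 300 FPKM 1.30 and 1.05.

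Of the 5 families, the Snrp genes had the largest median difference from NSCs in EPSCs and in ESCs, and in hybrid cells the SF3 genes had. All 11 Snrp genes, 7 for the Sm ring and 4 for proteins of U1 and U2, were higher in EPSCs and in hybrid cells than in NSCs, with family medians of 1.26 and 1.00 (log2), and 6 of 11 in ESCs, with a median of 0.62, beside 34.2%, 34.0%, and 31.7% of all tested genes in EPSCs, hybrid cells, and ESCs. Of the 11, 6, 3, and 3 were called in each scaling. Scaled to equal sums, these medians were 0.65, 0.38, and 0.07, beside -0.48, -0.51, and -0.47 for all tested genes. The genes with the highest mean were Snrpg and Snrpe, whose Sm proteins sit next to each other in the ring. Snrpg measured 559 and 535 FPKM in ESCs, 214 and 206 in NSCs, 560 and 549 in EPSCs, and 545 and 507 in hybrid cells. Its 6 pluripotent libraries lay close together and all above NSCs, and the difference from NSCs was 1.40 ± 0.06 (SE) for EPSCs, 1.32 ± 0.06 for hybrid cells, and 1.38 ± 0.06 for ESCs (limma, Benjamini-Hochberg adjusted p = 2.19e-07, 2.97e-07, and 2.42e-07), called in each scaling.

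Snrpe showed another order. It measured 407 and 383 FPKM in ESCs, 225 and 224 in NSCs, 583 and 522 in EPSCs, and 679 and 632 in hybrid cells, the highest value of any member in the hybrid libraries. The hybrid libraries exceeded all EPSC libraries, and the difference from NSCs was 1.54 ± 0.07 (log2, limma adjusted p = 3.85e-07). Snrpb2, a U2 snRNP protein that binds U2 snRNA, measured 98.0 and 99.5 FPKM in ESCs, 43.0 and 42.3 in NSCs, 124 and 114 in EPSCs, and 113 and 110 in hybrid cells. It was 2.78-fold, 2.61-fold, and 2.31-fold higher in EPSCs, hybrid cells, and ESCs than in NSCs (limma adjusted p = 1.33e-07, 1.89e-07, and 3.87e-07), in each scaling. Its RefSeq promoter, shown above, held a GC box on the opposite strand. Since such small genes have processed pseudogenes, reads of Snrpg, Snrpe, Hnrnpa1, and several Lsm genes may be split among copies.

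Within the ring, Snrpf was the lowest of the 7 genes in every library. It measured 161 and 153 FPKM in ESCs, 121 and 107 in NSCs, 293 and 255 in EPSCs, and 207 and 204 in hybrid cells, so EPSCs exceeded all other groups. The ring was most even in NSCs and EPSCs, with a ratio of highest to lowest member of 1.89 and 2.10 in NSCs, 1.99 and 2.15 in EPSCs, 3.47 and 3.499 in ESCs, and 3.27 and 3.10 in hybrid cells. The ratio of Snrpb to Snrpd3 within a library, which no scaling changes, was 0.731 and 0.737 in EPSCs and 0.959 to 1.06 in the other 6 libraries.

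SF3A and SF3B were the families in which the hybrid cells stood highest. All 3 SF3A genes were higher in each pluripotent group than in NSCs, and 3 of the 6 SF3B genes were in EPSCs, 4 of them in hybrid cells, and 1 in ESCs (all tested genes: 34.2%, 34.0%, and 31.7%). In each scaling, 1, 2, and 1 SF3A genes and 2, 0, and 1 SF3B genes were called. The family medians were 0.81, 1.07, and 0.48 (log2), or 0.21, 0.45, and -0.07 with equal sums, beside -0.48, -0.51, and -0.47 for all tested genes. Sf3a3 (SF3A subunit 3) measured 86.7 and 88.7 FPKM in ESCs, 49.4 and 49.8 in NSCs, 122 and 108 in EPSCs, and 150.5 and 134 in hybrid cells. The groups did not overlap, and the hybrid cells were 2.87-fold higher than NSCs (1.498 ± 0.08 on the log2 scale, limma adjusted p = 7.24e-07). Sf3a2 was 2.39-fold higher in hybrid cells than in NSCs, also in each scaling.

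The most abundant subunits of SF3B were the small protein Sf3b5 and the large one Sf3b2. Sf3b5 measured 152 and 157 FPKM in ESCs, 115 and 106 in NSCs, 264 and 249 in EPSCs, and 235 and 229 in hybrid cells, with EPSCs 2.32-fold above NSCs (limma adjusted p = 5.30e-07). Sf3b2 measured 135 and 134 FPKM in ESCs, 126 and 129 in NSCs, 154 and 140 in EPSCs, and 191 and 171 in hybrid cells, which lay above every other library. Sf3b3, a scaffold of the complex, measured 137 and 140.5 FPKM in ESCs, 60.2 and 62.2 in NSCs, 181 and 151 in EPSCs, and 152 and 120 in hybrid cells. It was 2.71-fold higher in EPSCs than in NSCs (limma adjusted p = 1.44e-05), the largest difference of the family in that comparison.

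Of the 11 SR protein genes, 7 were higher in EPSCs and 7 in hybrid cells than in NSCs, and in ESCs 5 were higher and 2 lower, beside 34.2%, 34.0%, and 31.7% of all tested genes that were higher and 32.6% that were lower in ESCs. The medians were 0.80, 0.70, and 0.46 (log2), or 0.19, 0.08, and -0.09 with equal sums, beside -0.48, -0.51, and -0.47 for all tested genes. The genes with the highest means were Srsf2 (SC35, a protein of nuclear speckles) and Srsf5. Srsf2 measured 525 and 548 FPKM in ESCs, 182 and 189 in NSCs, 444 and 391 in EPSCs, and 391 and 361 in hybrid cells. ESCs were highest and NSCs lowest without overlap, and the difference was 1.53 ± 0.07 (limma adjusted p = 5.41e-07). Srsf5 measured 481 and 506 FPKM in ESCs, 177 and 182 in NSCs, 431 and 371 in EPSCs, and 409 and 336 in hybrid cells, so that the EPSC and hybrid libraries overlapped.

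Srsf7, which contains a zinc knuckle, measured 231 and 234 FPKM in ESCs, 79.1 and 81.5 in NSCs, 198 and 167 in EPSCs, and 147 and 131.5 in hybrid cells, 2.90-fold higher in ESCs than in NSCs (limma adjusted p = 1.42e-06). Srsf9 ran the other way. It measured 53.1 FPKM in both ESC libraries, 81.6 and 87.0 in NSCs, 78.5 and 75.5 in EPSCs, and 71.2 and 70.1 in hybrid cells, and was 1.59-fold lower in ESCs than in NSCs (limma adjusted p = 8.82e-06). Srsf12 was at most 1.47 FPKM and was lower in ESCs (0.336 and 0.244 FPKM) than in NSCs (0.947 and 0.950; -0.60 ± 0.11, limma adjusted p = 0.00129). The Srsf12 call was lost without ESC replicate 2 and with a pseudocount of 5.

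As deposited, the hnRNP genes had the lowest family median against NSCs in EPSCs and in ESCs, and in hybrid cells the Lsm genes had (0.29, log2). Of the 20 hnRNP genes, 9 were higher than in NSCs and 2 lower in EPSCs, 5 and 2 in hybrid cells, and 4 and 1 in ESCs, where 34.2%, 34.0%, and 31.7% of all tested genes were higher and 32.5%, 32.5%, and 32.6% lower. The counts in hybrid cells and ESCs thus show no excess of higher genes, and the counts of lower genes were below the shares of all genes. The median differences were 0.45, 0.47, and 0.03 (log2) as deposited, beside 0.08, 0.06, and 0.03 for all tested genes. With equal sums they were -0.16, -0.15, and -0.52, beside -0.48, -0.51, and -0.47. After quantile normalization they were -0.15, -0.12, and -0.40, beside 0.07, 0.06, and 0.06. The most abundant genes were Hnrnpa2b1 and Hnrnpk, a poly(C)-binding protein. Hnrnpa2b1 measured 404 and 410.5 FPKM in ESCs, 424 and 412 in NSCs, 589 and 514 in EPSCs, and 436 and 410 in hybrid cells. Hnrnpk measured 339 and 354 FPKM in ESCs, 372 and 385 in NSCs, 486 and 447 in EPSCs, and 495 and 428 in hybrid cells. Both were thus as high in NSCs as in ESCs or higher, unlike Srsf2 and Srsf5, and the ratio of Srsf2 to Hnrnpa2b1 within a library was 1.30 and 1.33 in ESCs, 0.429 and 0.458 in NSCs, 0.754 and 0.762 in EPSCs, and 0.897 and 0.882 in hybrid cells.

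The hnRNP genes called lower than in NSCs were Hnrnpll, in ESCs, EPSCs, and hybrid cells, and Hnrnpul1, in EPSCs and hybrid cells. Without a call, Hnrnpr was also lower in every library outside NSCs (15.0 to 18.9 FPKM) than in both NSC libraries (22.8 and 22.7 FPKM). Hnrnpll, a paralog of Hnrnpl known for its part in the alternative splicing of CD45 in T cells, measured 28.4 FPKM in both ESC libraries, 47.8 and 47.5 in NSCs, 30.6 and 29.4 in EPSCs, and 28.4 and 29.2 in hybrid cells. It was 1.59-fold lower in EPSCs, 1.65-fold lower in hybrid cells, and 1.68-fold lower in ESCs than in NSCs, in each scaling (limma adjusted p = 7.36e-06, 4.46e-06, and 3.98e-06). Its ratio to Hnrnpl was 0.205 and 0.192 in NSCs and 0.0836 to 0.108 in the other libraries. Hnrnpul1 measured 77.8 and 83.2 FPKM in ESCs, 108 and 103 in NSCs, 62.5 and 66.8 in EPSCs, and 61.8 and 56.7 in hybrid cells, and was 1.63-fold and 1.78-fold lower in EPSCs and hybrid cells than in NSCs (limma adjusted p = 2.46e-05 and 9.18e-06).

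The Lsm genes held members with differences in both directions. Of 8 genes for the Lsm rings, 6 were higher in EPSCs than in NSCs, 4 in hybrid cells, and 5 in ESCs (all tested genes: 34.2%, 34.0%, and 31.7%), and Lsm6 was lower in hybrid cells. The median over all 13 tested Lsm genes was 0.63, 0.29, and 0.48 (log2), or 0.03, -0.33, and -0.07 with equal sums, beside -0.48, -0.51, and -0.47 for all tested genes. Lsm3 had the largest difference of all members from NSCs in EPSCs and in ESCs. It measured 242 and 246 FPKM in ESCs, 73.2 and 76.1 in NSCs, 235 and 226 in EPSCs, and 189 and 192 in hybrid cells. The 3 pluripotent groups were 3.27-fold, 3.09-fold, and 2.55-fold above NSCs (limma adjusted p = 3.52e-08, 4.37e-08, and 1.13e-07), in each scaling. Lsm4 measured 186 and 172 FPKM in ESCs, 96.8 and 85.9 in NSCs, 136 and 135 in EPSCs, and 103 and 122 in hybrid cells. Lsm5 measured 107 and 103 FPKM in ESCs, 48.8 and 60.8 in NSCs, 162 and 142 in EPSCs, and 124 and 120 in hybrid cells, with EPSCs 2.77-fold above NSCs (limma adjusted p = 5.01e-06).

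Lsm6 was the lowest of Lsm2 to Lsm8 in all 8 libraries. It measured 22.0 and 21.2 FPKM in ESCs, 24.9 and 22.9 in NSCs, 21.2 and 17.5 in EPSCs, and 14.2 and 13.3 in hybrid cells, and was 1.74-fold lower in hybrid cells than in NSCs (limma adjusted p = 1.39e-04). The ratio of the highest to the lowest gene of Lsm2 to Lsm8 was 3.76 and 3.89 in NSCs and 11.0 to 14.4 in the other libraries. Lsm1 belongs to the cytoplasmic ring that takes part in mRNA decay and Lsm8 to the nuclear ring of U6. Their ratio was 0.204 and 0.203 in ESCs, 0.101 and 0.0974 in NSCs, 0.120 and 0.114 in EPSCs, and 0.145 and 0.126 in hybrid cells, so Lsm1 was highest relative to Lsm8 in ESCs.

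Lsm11, a protein of the U7 snRNP that processes histone mRNA, was low throughout. It measured 1.91 and 2.17 FPKM in ESCs, 4.01 and 4.36 in NSCs, 1.95 and 2.05 in EPSCs, and 2.43 and 2.33 in hybrid cells. It was called lower in ESCs, EPSCs, and hybrid cells than in NSCs (-0.77 ± 0.08, -0.79 ± 0.08, and -0.62 ± 0.08 on the log2 scale), but not with a pseudocount of 5 or after quantile normalization. In hybrid cells its call was also lost without NSC replicate 2.

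Between the 2 kinds of pluripotent cell grown from embryos, EPSCs and ESCs, the median of all tested genes moved from 0.04 to 0.00 (log2) with equal sums. The summed fibroblast genes also differed here, at 24.8 and 27.1 FPKM in ESCs and 124 FPKM in both EPSC libraries. Their part in the differences of members was not tested. The members higher in EPSCs in each scaling were Hnrnpa1, Hnrnpa3, Hnrnph3, Lsm12, and Snrpf, and those lower in each were Lsm14b and Srsf6. Snrpd1, Snrpd3, and Sf3b5 were also higher as deposited but not in each scaling. After quantile normalization 5 members were called higher, beside 13% of all tested genes. The largest difference was that of Lsm14b, which binds RNA in cytoplasmic granules. It measured 47.7 and 49.1 FPKM in ESCs, 31.2 and 32.3 in NSCs, 17.4 and 18.1 in EPSCs, and 20.9 and 20.2 in hybrid cells. All 4 groups were apart, and EPSCs were 2.72-fold lower than ESCs (-1.40 ± 0.06, limma adjusted p = 3.47e-06). The gene of its paralog Lsm14a ran differently, so that the ratio of Lsm14b to Lsm14a was 0.608 and 0.596 in ESCs, 0.546 and 0.559 in NSCs, 0.197 and 0.219 in EPSCs, and 0.336 and 0.326 in hybrid cells. In the hybrid cells, Lsm14b was 1.54-fold lower than in NSCs, a call that was lost without NSC replicate 2, without Hybrid replicate 2, and with a pseudocount of 5.

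Srsf6 measured 267 and 274 FPKM in ESCs, 106 and 111 in NSCs, 164 and 158 in EPSCs, and 174 and 180 in hybrid cells. It was 1.67-fold lower in EPSCs than in ESCs (-0.74 ± 0.05, limma adjusted p = 3.17e-05), and its ratio to Srsf4, a near relative, was 3.44 and 3.42 in ESCs, 1.76 and 1.88 in NSCs, 2.41 and 2.204 in EPSCs, and 2.99 and 2.78 in hybrid cells. Hnrnpa1, the classical antagonist of SR proteins at splice sites, measured 336 and 324 FPKM in ESCs, 272 and 349 in NSCs, 582 and 555 in EPSCs, and 430 and 440 in hybrid cells, 1.72-fold higher in EPSCs than in ESCs (limma adjusted p = 6.44e-04). Its NSC libraries were the widest pair among the members in NSCs and overlapped with ESCs.

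Hnrnpa3 measured 81.9 and 86.2 FPKM in ESCs, 104 and 97.2 in NSCs, 167 and 145 in EPSCs, and 161 and 140 in hybrid cells, where the EPSC and hybrid libraries overlapped. EPSCs were 1.86-fold above ESCs (limma adjusted p = 1.63e-04). Lsm12 measured 38.1 and 35.9 FPKM in ESCs, 30.8 and 38.1 in NSCs, 69.0 and 64.1 in EPSCs, and 79.2 and 71.2 in hybrid cells. It was 1.80-fold higher in EPSCs than in ESCs (limma adjusted p = 4.39e-04), and ESCs did not stand apart from NSCs. Snrpf was 1.75-fold higher in EPSCs than in ESCs (limma adjusted p = 1.97e-04).

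**Figure D5:**
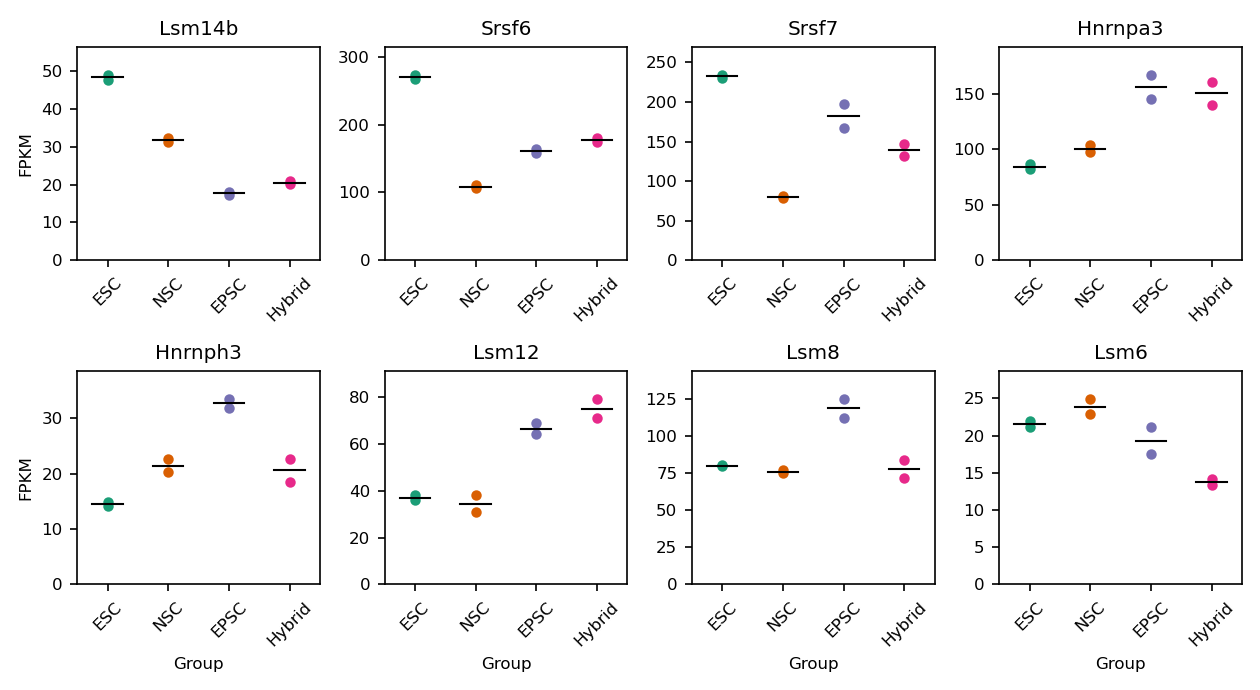
FPKM of 8 members in the libraries of each group (points, 2 per group) with the group mean (line), on axes that start at 0. Lsm14b is highest in ESCs, at 47.7 and 49.1 FPKM, and Hnrnph3 and Lsm8 are higher in both EPSC libraries than in any other.

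Hybrid cells and EPSCs were set against each other to see whether the fusion line differs from EPSCs, the pluripotent cell type it was made with. The sample names do not say whether the sequenced EPSC line was the one fused. The members called were Hnrnph3 and Lsm8, both lower in hybrid cells and both highest in EPSCs among the 4 groups. Hnrnph3, a member of the hnRNP H family that binds runs of G, measured 14.8 and 14.2 FPKM in ESCs, 22.6 and 20.2 in NSCs, 31.9 and 33.5 in EPSCs, and 18.6 and 22.7 in hybrid cells. It was 1.58-fold lower in hybrid cells than in EPSCs (-0.65 ± 0.10, limma adjusted p = 0.00237), where it overlapped with NSCs, and 2.25-fold higher in EPSCs than in ESCs (limma adjusted p = 8.97e-05). Lsm8 measured 79.8 and 80.3 FPKM in ESCs, 75.0 and 77.3 in NSCs, 125 and 113 in EPSCs, and 71.9 and 84.3 in hybrid cells, 1.52-fold lower in hybrid cells than in EPSCs (-0.60 ± 0.08, limma adjusted p = 0.00160). Both calls were lost without Hybrid replicate 1, with a pseudocount of 5, and after quantile normalization, and that of Lsm8 also without EPSC replicate 1, each through the size of the difference and not the adjusted p, which stayed at or below 0.0218 and 0.0207.

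By adjusted p alone, 12 members were higher and 19 lower in hybrid cells than in EPSCs, where 22.5% of all tested genes were higher and 21.9% lower. The higher ones included 6 of the 9 SF3 genes (Sf3a1, Sf3a2, Sf3a3, Sf3b1, Sf3b2, and Sf3b6, differences of 0.21 to 0.30 on the log2 scale), and the family median was 0.22. The lower ones included 6 of the 8 genes of the Lsm rings, with a median of -0.29 over the 8. These differences are small, and the fibroblast genes, at 124 FPKM in EPSCs and 449 and 331 FPKM in hybrid cells, also moved with the groups. All 14 of them were detected in both, and Col1a1 measured 13.6 and 15.7 FPKM in EPSCs and 61.0 and 46.2 in hybrid cells. Their part in these differences was not tested. In bulk RNA, fewer cells of a type and less RNA per cell cannot be told apart.

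Placed between EPSCs and NSCs, the cell types fused, the hybrid cells were nearer to EPSCs in 55 of the 64 tested members and nearer to NSCs in 9, where 83.6% of all tested genes were nearer to EPSCs, or in 45 (85.6%) with equal sums. In 26 members both hybrid libraries lay between the EPSC and NSC libraries (28.9% of all tested genes), and in 24 with equal sums. In 14 both lay above all EPSC and NSC libraries, where 18.7% of all tested genes did, and 7 of these 14 were SF3 genes. In 4 members, Hnrnpll, Hnrnpul1, Lsm6, and Srsf9, both lay below (16.2% of all tested genes). The remaining members overlapped with EPSCs or NSCs, 15 with EPSCs and 5, Hnrnpa2b1, Hnrnph2, Hnrnph3, Lsm8, and Srsf4, with NSCs only.

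Other parts of the splicing machinery, taken from lists of named genes, were mostly higher outside NSCs in FPKM as deposited. Of 71 further core components, 47 were higher and 4 lower in EPSCs than in NSCs, 48 and 3 in hybrid cells, and 39 and 2 in ESCs (all tested genes: 34.2% and 32.5%, 34.0% and 32.5%, and 31.7% and 32.6%), which changed to 14 and 7, 15 and 8, and 14 and 8 with equal sums (22.9% and 46.8%, 22.4% and 47.7%, and 21.9% and 46.8%). Dhx16, a helicase of the activated spliceosome, measured 19.9 and 19.0 FPKM in NSCs and 99.5 and 89.6 in hybrid cells, and Smndc1 22.7 and 24.6 against 109 and 107. Zcrb1, a protein of the minor spliceosome, went the other way, with 44.6 and 49.7 FPKM in NSCs and 13.6 and 15.1 in hybrid cells, and Prpf40b measured 15.6 and 14.6 against 5.20 and 5.50. Hybrid cells differed from EPSCs in 2 of the 71, beside 7.39% of all tested genes higher and 5.62% lower. Cwc22 was higher (60.3 and 56.1 FPKM against 33.0 and 32.2, 0.82 ± 0.05, limma adjusted p = 1.19e-04), and Zcrb1 was lower.

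Tissue-specific regulators of splicing differed in both directions. Of 56 tested, 21 were higher and 15 lower in hybrid cells than in NSCs, near the shares over all tested genes (34.0% and 32.5%), and 9 and 19 with equal sums (22.4% and 47.7%). The epithelial regulator Esrp1 was listed at 0 in both NSC libraries and measured 7.55 and 7.41 FPKM in ESCs, 22.1 and 15.9 in EPSCs, and 10.5 and 6.81 in hybrid cells. Rbm47, also at 0 in NSCs, measured 5.35 and 7.88 FPKM in hybrid cells. The neuronal regulator Nova1 measured 26.5 and 27.6 FPKM in NSCs and 0.786 and 0.852 in hybrid cells, and Celf2 20.6 and 23.1 against 1.31 and 1.37 (limma adjusted p = 2.02e-08 and 2.19e-08). Against EPSCs, 4 of the 56 were lower in hybrid cells, near the 5.62% of all tested genes, and these were Esrp1, Elavl3, Esrp2, and Mbnl1. Elavl3 measured 1.52 and 1.11 FPKM in EPSCs and 0.258 and 0.327 in hybrid cells (-0.84 ± 0.10, limma adjusted p = 9.12e-04). Mbnl1, which promotes the splicing of differentiated cells, was picked after its values were seen and measured 1.21 and 1.38 FPKM in ESCs, 22.0 and 25.4 in NSCs, 8.01 and 7.73 in EPSCs, and 5.26 and 4.49 in hybrid cells. The ratio of Ptbp2, the neural form of the polypyrimidine tract-binding protein, to Ptbp1 was 0.178 and 0.192 in NSCs and 0.0313 to 0.0454 in the other libraries, among the hybrid cells 0.0313 and 0.0356.

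The factors that load Sm rings onto snRNA, built around the SMN complex, were mostly higher outside NSCs in FPKM as deposited. Of 16, 12 were higher and 1 lower in EPSCs than in NSCs, 13 and 1 in hybrid cells, and 9 and 1 in ESCs (all tested genes: 34.2% and 32.5%, 34.0% and 32.5%, and 31.7% and 32.6%), or 8 and 3, 7 and 3, and 5 and 2 with equal sums (all tested genes: 22.9% and 46.8%, 22.4% and 47.7%, and 21.9% and 46.8%). Gemin2, which holds the Sm proteins, measured 26.1 and 25.4 FPKM in ESCs, 10.3 and 10.1 in NSCs, 49.0 and 43.8 in EPSCs, and 57.1 and 56.3 in hybrid cells. It was 2.37 ± 0.07 higher on the log2 scale in hybrid cells than in NSCs (limma adjusted p = 3.21e-08). Coil, the marker of Cajal bodies, measured 8.30 and 8.48 FPKM in NSCs and 33.0 and 44.1 in hybrid cells. Gemin8 was the lower gene, with 9.62 and 8.26 FPKM in NSCs and 4.45 and 4.58 in hybrid cells.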

How the data were processed

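The authors prepared stranded poly-A libraries, trimmed reads with skewer, aligned them to mm10 with STAR 2.7.9a, and deposited FPKM for each gene and library, made with Cuffnorm of Cufflinks 2.2.1. The annotation, the strand setting, and the library normalization of Cuffnorm were not given in the sources used here, and 0 columns belonged to other samples. Since the strand setting is not known, it is also not known whether overlapping and antisense genes were kept apart.

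Groups were taken from the labels. FPKM was tested with limma 3.58.1 in R 4.3.3 (moderated linear models with a mean-variance trend) after a log2 transform with a pseudocount of 1, all 4 groups and 8 libraries in a single model (4 residual and 3.25 prior degrees of freedom), two-sided, over 13239 genes with a mean of at least 1 FPKM in at least 1 group. The other values were computed with Python 3.11.15. A fold on the log2(FPKM + 1) scale understates changes of low genes, and folds printed as such are ratios of mean FPKM. On simulated data for hybrid cells against NSCs with 13239 genes, 42 of 100 genes changed 1.5-fold and 92 of 100 changed 2-fold were called, and 6 of 13039 unchanged genes. Genes set at 1.5-fold lie at the minimum for a call, so many must fall under it. No other genes were changed there, whereas in the real comparison 34.0% of tested genes were called higher and 32.5% lower. These rates therefore need not hold for the real data.

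Alternatives were pseudocounts of 0.1 and 5, no filter and a filter at 3 FPKM, equal sums, quantile normalization, median ratios, the compared groups alone, the replicate number as a block, each library left out, and other fold minima. The members and all gene lists were chosen with earlier results of these data known. Full values are given for the 2 most abundant members of each family and, in each comparison, for up to 5 called members in each direction with the largest differences and no overlap between libraries, and of each other list for up to 2 in each direction for hybrid cells. Promoter sequences are from RefSeq on GRCm38.p6. Protein sequences were not used here.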

Additional observations from a re-analysis of the deposited data

How the results depend on the processing

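Calls against NSCs depended on the scaling and on the fold minimum. With equal sums, members called higher and lower numbered 13 and 9 in EPSCs, 6 and 10 in hybrid cells, and 11 and 14 in ESCs, and over all tested genes the share of calls that were higher fell from 51.2%, 51.1%, and 49.3% to 32.8%, 31.9%, and 31.9%. With equal sums, the median in EPSCs against NSCs was 0.18 (log2) for the members and -0.48 for all tested genes. In hybrid cells against NSCs the 2 medians were 0.11 and -0.51, so the members stayed above all genes in both. The median difference of the members from all tested genes was 0.39 (log2) in ESCs against NSCs with equal sums, beside 0.44. After quantile normalization it was 0.26, 0.16, and 0.0908 in EPSCs, hybrid cells, and ESCs against NSCs, beside 0.71, 0.67, and 0.44, and 0.0730 in EPSCs against ESCs, beside 0.19. Members called higher then numbered 20 in EPSCs and 13 in hybrid cells against NSCs and 5 in EPSCs against ESCs (all tested genes: 33.1%, 33%, and 13%). In hybrid cells 0 were called lower than in EPSCs (6.12% of all tested genes). With a fold minimum of 2, 21, 16, and 13 were higher in EPSCs, hybrid cells, and ESCs than in NSCs and 0 lower in each, 1 was higher and 1 lower in EPSCs than in ESCs, and 0 were lower in hybrid cells than in EPSCs. With no fold minimum, 8 were lower in EPSCs than in NSCs, 43 higher and 11 lower in ESCs than in NSCs, 32 higher and 10 lower in EPSCs than in ESCs, and 12 higher and 19 lower in hybrid cells than in EPSCs (22.5% and 21.9% of all tested genes). No other share of all tested genes is given for these fold minima, so the other counts cannot be set against all genes. With a pseudocount of 5, 3 were lower in hybrid cells and 2 in ESCs than in NSCs, and 0 in hybrid cells than in EPSCs (all tested genes lower: 23.6%, 23.8%, and 2.15%). With a pseudocount of 0.1, 1 was higher in hybrid cells than in EPSCs (11.3% of all tested genes). Leaving out a library gave 3 to 5 members lower in hybrid cells than in NSCs (3 without NSC replicate 2) and 0 to 3 lower in hybrid cells than in EPSCs (0 without Hybrid replicate 1, 1 without EPSC replicate 1, and 3 without EPSC replicate 2). When a group was left with 1 library, that library was assumed to vary like the others, so these counts cannot be read as many or few. Beyond these constructions, the cause was not tested.

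The labels do not say that a replicate number marks a shared culture or batch. Deviations of same-numbered libraries correlated at -0.11 to 0.07 in 4 comparisons and at 0.28 in hybrid cells against EPSCs. With it as a replicate block, the counts of members called were the same in all 5 comparisons (40 and 4, 35 and 5, 25 and 4, 0 and 2, and 8 and 2, higher and lower), as was the call of each of the 37 named differences. Of these 37, none was lost with equal sums, 5 were lost after quantile normalization and 7 with a pseudocount of 5, and none reversed in any setting. They were chosen as the largest called differences without overlap, so this says little about the other members, many of whose calls changed with equal sums. With 2 libraries of a single line per group, a member without a call is not shown to be equal between groups.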

Other observations

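Genes of steps that follow splicing differed from NSCs to an extent that depended on the scaling. Of 18 genes of the exon junction complex and nonsense-mediated decay, 11 were higher and 0 lower in EPSCs than in NSCs, 11 and 1 in hybrid cells, and 8 and 1 in ESCs, where 34.2%, 34.0%, and 31.7% of all tested genes were higher and 32.5%, 32.5%, and 32.6% lower. With equal sums the counts were 8 and 2, 7 and 4, and 3 and 2, and the shares of all tested genes 22.9% and 46.8%, 22.4% and 47.7%, and 21.9% and 46.8%. In hybrid cells against EPSCs, 0 of the 18 were higher and 2 lower, the exon junction genes Magohb and Rnps1 (all tested genes: 7.39% and 5.62%). Magohb measured 4.80 and 4.69 FPKM in ESCs, 16.2 and 19.1 in NSCs, 46.1 and 37.4 in EPSCs, and 12.02 and 13.9 in hybrid cells, and was lower in hybrid cells than in EPSCs by -1.61 ± 0.12 (log2, limma adjusted p = 1.90e-04). Its near-identical paralog Magoh measured 192 and 193, 67.0 and 63.8, 268 and 233, and 263 and 253 FPKM in the same order, and reads may be split between them. Rnps1 measured 57.0 and 60.2 FPKM in ESCs, 35.2 and 38.0 in NSCs, 200 and 196 in EPSCs, and 123 and 110 in hybrid cells (-0.76 ± 0.07, limma adjusted p = 3.58e-04, in hybrid cells against EPSCs). Among genes of 3′ end formation, 11 of 22 exceeded the NSC level in hybrid cells and 0 were lower (all tested genes: 34.0% and 32.5%), or 3 and 3 with equal sums (22.4% and 47.7%). In ESCs 8 were higher, near the 31.7% of all tested genes, and 2 lower (32.6%), or 5 and 5 with equal sums (21.9% and 46.8%). The largest differences in hybrid cells were those of Clp1 at 6.70 and 7.01 FPKM in NSCs and 56.0 and 52.4 in hybrid cells and Ssu72 at 36.7 and 36.9 against 99.0 and 113.

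Of 11 partners of the Lsm1 to Lsm7 ring in mRNA decay, 5 were higher and 1 lower in hybrid cells than in NSCs (all tested genes: 34.0% and 32.5%), but 1 and 2 with equal sums (22.4% and 47.7%). Patl2 was listed at 0 in both NSC libraries and measured 13.3 and 11.97 FPKM in ESCs, 1.32 and 1.36 in EPSCs, and 0.895 and 1.24 in hybrid cells, whereas its paralog Patl1 measured 15.8 and 16.7 FPKM in NSCs and 32.2 and 31.2 in hybrid cells. Dcp1b, a cofactor of decapping, measured 3.76 and 4.19 FPKM in NSCs and 1.52 and 1.33 in hybrid cells. Among 7 tested kinases of SR proteins, Clk1 and Srpk1 exceeded the NSC level in hybrid cells and Srpk2 was lower (all tested genes: 34.0% higher and 32.5% lower), or 1 higher and 3 lower with equal sums (22.4% and 47.7%). As deposited, 2 were higher and 3 lower in EPSCs than in NSCs (34.2% and 32.5%), and 1 and 2 in ESCs (31.7% and 32.6%). Clk1 measured 37.4 and 36.1 FPKM in NSCs, 77.3 and 81.9 in EPSCs, and 112 and 116 in hybrid cells, Srpk1 29.3 and 31.5, 56.4 and 53.8, and 53.6 and 54.4, and Srpk2 18.4 and 19.7, 7.97 and 7.78, and 5.16 and 5.69. Of the 16 genes of Sm ring loading, 1 was called higher in hybrid cells than in EPSCs and 0 lower, beside 7.39% and 5.62% of all tested genes. It was Gemin4 of the SMN complex (39.5 and 26.3 against 24.0 and 17.9 FPKM, 0.61 ± 0.20, limma adjusted p = 0.0395). Its difference was close to the minimum of 0.585 for a call.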
